A study of Mus musculus with 16 samples.

Results

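NZO (NZO_HlLtJ) is an inbred strain of mice whose pancreatic islets were profiled by ATAC-seq, an assay in which a transposase inserts sequencing adapters into open chromatin, beside those of 7 other inbred strains. The strain was represented by 2 of the 16 samples of the series, 1 female and 1 male, chosen by the strain label. The comparison samples were the 14 samples, 1 female and 1 male each, of 129 (129S1_SvImJ), AJ (A_J), B6 (C57BL/6J), CAST (CAST_EiJ), NOD (NOD_ShiLtJ), PWK (PWK_PhJ) and WSB (WSB_EiJ). These strains founded the diversity outbred mice in which islet expression traits are mapped. No treatment was labelled, age was not given in the sources used here, and the number of animals behind the islets of a sample was not given either. Each strain had only these 2 samples as replicates, so that sex and the spread between samples of a strain cannot be told apart within NZO, and a p-value below measures the spread between these samples.

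As background, NZO mice carry a polygenic obesity with insulin resistance, and diabetes in this strain develops mainly in males. Islets consist of hormone-secreting endocrine cells, mostly insulin-producing beta cells, together with endothelial cells, stromal cells and resident macrophages. An accessible region marks a promoter, an enhancer or another site where nucleosomes are displaced, and a difference in accessibility in whole islets can come from a change within cells or from a different mix of cells. In a bulk sample, fewer cells of a type and a less open region in each cell cannot be told apart.

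The accessible regions below were merged from the peak lists of the 16 samples on the 19 autosomes of mm10, which gave 347712 regions. Of these, 40940 (11.8%) held a peak in every sample and are called shared regions. The level of a shared region in a sample was log2(summit signal + 1), centred on the median of the shared regions of that sample, so that 0 is the median region of the sample and 1 unit is a doubling of the summit signal. Where regions without a peak in some samples are described, the scaled signal is the summit signal over that median, and 0 means that no peak was listed, not that the region was closed. The NZO female list held 106539 autosomal peaks and the NZO male list 141307, where the 16 lists ranged from 77887 (AJ male) to 167051 (WSB female). Over the shared regions the median summit signal was 81 in the NZO female and 55 in the NZO male. The signal is a whole number, so levels far below 0 stand on few units and move with small changes. The peak lists give no read total per sample, so no depth stands beside single values. Of 26 promoters of beta cell identity and insulin secretion, 25 had a peak in each NZO sample and 25 to 26 in the other samples. Without the share of all gene promoters with a peak, this count describes the samples and does not establish islet identity.

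The 2 NZO samples resembled each other less than the pair of any other strain did. The NZO female was the closest of the 16 samples to the other strains and the NZO male the most distant. The mean Pearson correlation with the 14 samples of other strains was 0.869 in the NZO female, the highest value of any sample, and 0.765 in the NZO male, the lowest (descriptions over 40940 regions). The female and the male of NZO correlated at 0.848, below the pairs of the 7 other strains, which lay between 0.891 in PWK and 0.973 in CAST. Among the samples of other strains, the NZO male was most similar to the 129 female (0.840) and least to the AJ male (0.689), and the NZO female most similar to the B6 female (0.912) and least to the CAST female (0.802). The level of the NZO male lay above every sample of the other strains in 6151 shared regions and below every one in 6456. In the NZO female this held for 1211 and 1952 regions. Both together, 30.8% of the shared regions of the NZO male were outside the range of the other strains, against 7.73% in the NZO female and 7.81% to 21.8% in the other 14 samples. For this reason the counts of called regions are given with both NZO samples and with each alone, and most named regions with both levels.

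**Figure D1:**
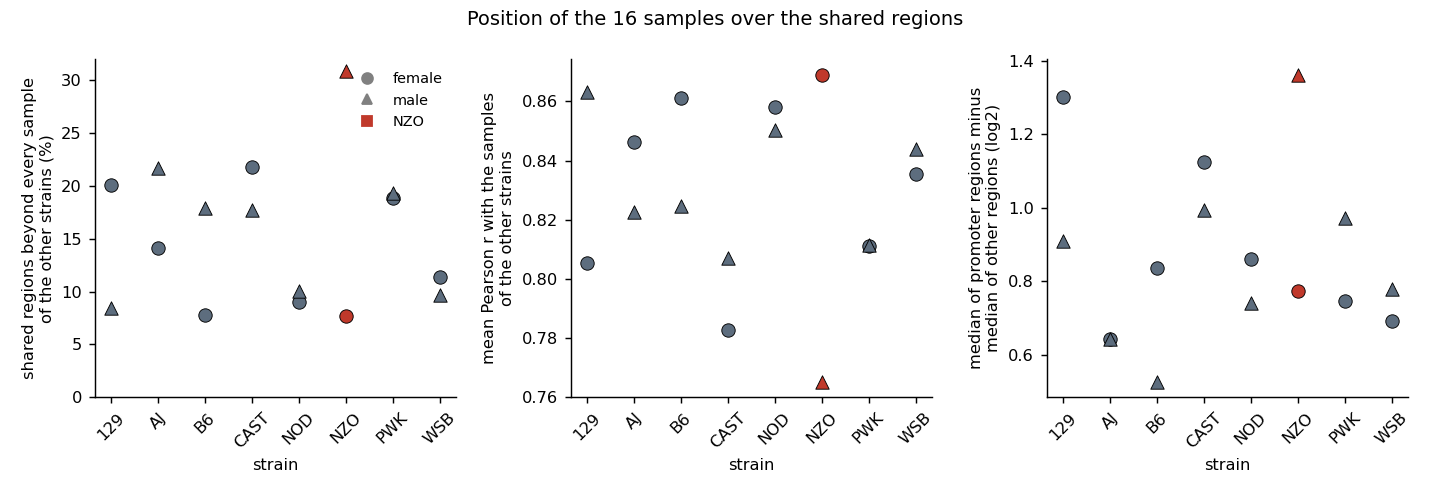
Each point is 1 sample, with circles for females, triangles for males and NZO in red. The left panel gives the percent of shared regions beyond every sample of the other strains, the middle panel the mean Pearson r with those samples, and the right panel the median log2 level of promoter regions minus that of other regions. The NZO male (30.8%, r = 0.765) and the NZO female (7.73%, r = 0.869) sit at opposite ends of the first 2 panels.

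The sequences below are the reference windows, 200 bases around the summit, of 6 regions on which the results turn. Nr1h4 and Ltbp1 carried peaks that were listed in both NZO samples and in no other. Rufy3 and Sh3rf1 differed in both NZO samples alike, and Pnrc1 and Myh9 were higher in NZO with the larger level in the male. They were read from the plus strand of GRCm38, the assembly of mm10 and of C57BL/6J, and not from NZO. Capitals mark the AP-1 letters TGANTCA, where N is any base. This string is wider than TGACTCA or TGAGTCA, the AP-1 site bound by FOS and JUN proteins. Capitals also mark GAGGAAGT on either strand, the site of the myeloid factor PU.1.
Nr1h4 intron, chr10:89527156-89527355: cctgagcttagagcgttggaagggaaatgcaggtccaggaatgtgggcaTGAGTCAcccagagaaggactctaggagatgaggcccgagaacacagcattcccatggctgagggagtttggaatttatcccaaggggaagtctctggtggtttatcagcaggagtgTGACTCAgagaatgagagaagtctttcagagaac
Ltbp1 intron, chr17:75110477-75110676: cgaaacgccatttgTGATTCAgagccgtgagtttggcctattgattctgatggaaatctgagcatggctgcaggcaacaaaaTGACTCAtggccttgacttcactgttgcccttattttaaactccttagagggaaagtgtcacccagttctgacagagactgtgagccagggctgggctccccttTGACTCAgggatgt
Rufy3 intron, chr5:88630045-88630244: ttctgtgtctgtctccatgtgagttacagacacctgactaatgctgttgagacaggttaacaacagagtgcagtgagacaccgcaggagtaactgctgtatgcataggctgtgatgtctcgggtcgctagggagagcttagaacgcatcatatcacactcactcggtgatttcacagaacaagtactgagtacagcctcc
Pnrc1 intron, chr4:33282428-33282627: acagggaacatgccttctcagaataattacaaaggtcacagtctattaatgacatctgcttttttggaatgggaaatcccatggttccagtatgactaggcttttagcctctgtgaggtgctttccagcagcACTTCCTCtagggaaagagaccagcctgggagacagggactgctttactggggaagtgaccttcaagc
Myh9 intron, chr15:77800605-77800804: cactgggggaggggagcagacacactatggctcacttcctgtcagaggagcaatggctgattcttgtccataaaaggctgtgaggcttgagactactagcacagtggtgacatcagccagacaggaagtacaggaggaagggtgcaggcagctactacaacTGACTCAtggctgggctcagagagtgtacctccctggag
Sh3rf1 intron, chr8:61306666-61306865: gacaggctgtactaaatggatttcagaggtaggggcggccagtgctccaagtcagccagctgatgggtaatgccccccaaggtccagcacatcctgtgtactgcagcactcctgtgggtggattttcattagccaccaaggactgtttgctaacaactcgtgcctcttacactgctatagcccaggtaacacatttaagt

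To determine where NZO chromatin differed from the other strains, the mean of the NZO samples was compared with the mean of the 7 other strains in the shared regions, with strain and sex in the model. Accessibility was higher in NZO in 950 regions (2.32%) and lower in 1174 (2.87%) at an adjusted p-value under 0.05. In 346 of the higher regions (0.845% of the shared regions) both NZO samples lay above all 14 others, and in 491 of the lower regions (1.2%) both lay below them. The counts followed the male. With the NZO male alone, 5238 regions were higher (12.8%) and 6028 lower (14.7%), and with the NZO female alone 70 were higher (0.171%) and 49 lower (0.12%). The female and the male differed from the other strains in the same direction in 61.5% of all shared regions, and their differences correlated at 0.361 across the regions. In 695 of the 837 called regions that lay beyond all other samples, the male had the larger difference, with a median size of 1.24 in the male and 0.82 in the female. This model sets the difference against the spread between the sexes of a strain. When each strain was reduced to 1 mean, so that the 7 other strains gave the spread, no region passed (0 higher and 0 lower by limma, with 2117 at an unadjusted p under 0.05), and strain as a random block also gave 0 and 0 (1904 at an unadjusted p under 0.05).

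**Figure D2:**
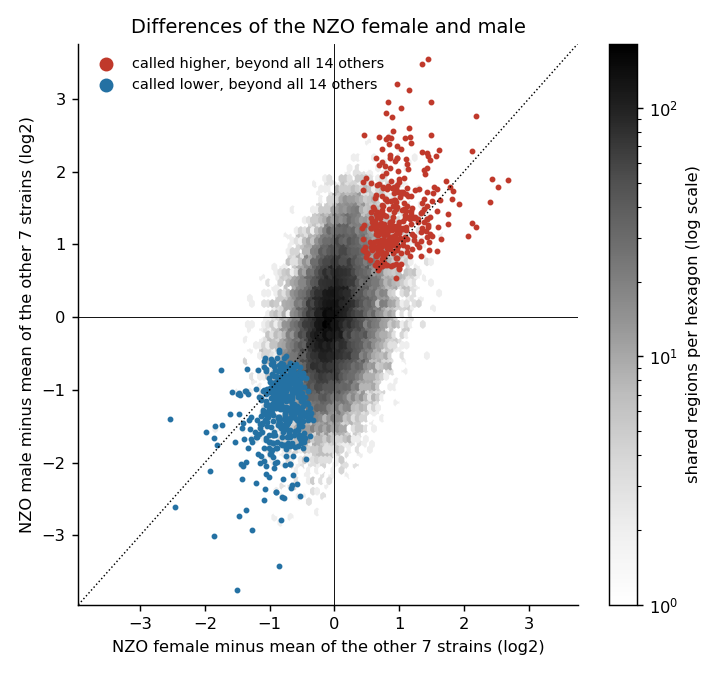
Each shared region is placed by the level of the NZO female (horizontal) and of the NZO male (vertical) minus the mean of the other 7 strains, both on the log2 scale, with grey hexagons for the number of regions. Red points are the 346 regions called higher and blue points the 491 called lower with both NZO samples beyond all 14 others, and most lie farther from 0 in the male than in the female.

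The called regions beyond all other samples lay away from promoters more often than the shared regions as a whole. Of all shared regions, 38.5% had their summit within 3000 bases of a transcription start, against 23.4% of the 346 higher and 24.0% of the 491 lower regions. Introns held 43.4% of the higher and 36.3% of the lower regions, against 31.5% of all shared regions. The higher regions had a median level of -0.69 in the other samples, and the lower regions had -0.039, near the median region. Both sets were chosen by those same samples lying below or above NZO, so the choice alone can shift these medians.

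Among the higher regions at named genes, the largest difference was at the promoter of Trim30a (chr7:104464700-104465759), an interferon-induced tripartite motif protein. Its level was -0.036 in the NZO female and 2.08 in the NZO male, and from -2.83 in the CAST female to -0.88 in the 129 female among the others, with a median of -1.26. Both NZO samples lay above the rest, by 2.50 ± 0.33 (SE) on the log2 scale for the strain (adjusted p = 0.00314). Trim30a is one of several similar neighbouring genes, between which reads could be divided. At the intron of Stx3 (chr19:11800321-11801210), a syntaxin of vesicle fusion, the levels were 1.68 in the female and 2.26 in the male, and the other samples ranged from -3.57 to 1.08 with a median of -0.13 (difference 2.47 ± 0.28, adjusted p = 0.00104). An intron of Rufy3 (chr5:88629107-88631805) reached 2.01 in the female and 1.22 in the male, against -1.88 to 0.20 elsewhere (median -0.59, difference 2.28 ± 0.24, adjusted p = 0.00086). There, as at Slc37a2, the female was the higher of the pair.

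The intron of Slc37a2 (chr9:37242214-37242914), a sugar phosphate transporter, had levels of 0.85 in the female and 0.026 in the male, against at most -0.07 in the others (difference 1.99 ± 0.34, adjusted p = 0.00904). In an intron of Cacna1c (chr6:118929044-118936946), which encodes the pore of an L-type calcium channel, the levels were 0.75 and 1.43, and no other sample was above -0.42 (difference 1.96 ± 0.22, adjusted p = 0.00104). The summit lay 101302 bases from the nearest start. With the mean signal of the peaks in place of the summit signal, the difference at Cacna1c was 0.25 (adjusted p = 0.453). For Pnrc1 (chr4:33282087-33282780), a nuclear receptor coactivator whose intronic region holds the PU.1 letters printed above, the levels were 0.45 and 1.10 against at most -0.44 (difference 1.89 ± 0.26, adjusted p = 0.00362). Sdccag8, which encodes a centrosomal protein, and Myh9, a heavy chain of non-muscle myosin, were of another kind. The intronic region of Sdccag8 (chr1:176818022-176819094) had a level of -0.36 in the NZO female, next to -0.42 in the PWK female, and 1.77 in the NZO male (difference 2.41 ± 0.42, adjusted p = 0.0102). That of Myh9 (chr15:77800462-77800944) had -0.43 in the NZO female, next to -0.59 in the WSB male, and 1.70 in the NZO male (difference 1.90 ± 0.39, adjusted p = 0.0177). With the NZO female alone, the adjusted p-values were 0.198 for Sdccag8, 0.367 for Myh9 and 0.09 for Pnrc1, so these 3 calls rested on the male.

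Among the lower regions at named genes, that in an exon of Clec12b (chr6:129379973-129382757), a C-type lectin receptor from a family of similar genes, fell the most, with levels of 0.26 in the female and -2.0 in the male against 0.32 to 2.70 in the others (median 1.92, difference -2.63 ± 0.39, adjusted p = 0.00496). The female lay just under the CAST female, and the adjusted p with the female alone was 0.0833. The intron of Sh3rf1 (chr8:61306148-61307304), a scaffold protein of JNK signalling, was low in both, at -1.36 and -1.56, while the others ranged from -0.69 to 2.67 (median 0.37, difference -2.02 ± 0.21, adjusted p = 0.000628). The intron of Tspan9 (chr6:128020312-128022087), a tetraspanin, was likewise low in both, at -1.83 and -1.64 against -0.65 to 1.02 (difference -1.77 ± 0.20, adjusted p = 0.00114). In both regions the female and the male lay close together and apart from the other 14 samples.

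At the promoter of Anxa5 (chr3:36452264-36453799), which encodes the phosphatidylserine-binding annexin A5, the levels were -1.31 and -2.11 against -0.56 to 0.76 (difference -1.82 ± 0.20, adjusted p = 0.00104), and with the mean signal the difference was -0.85 (adjusted p = 0.0531). In an intron of Sos1 (chr17:80468400-80468957), an exchange factor that activates Ras, the female had the lower level, -1.77 against -0.64 in the male, and the PWK female was next at -0.58 (difference -1.97 ± 0.24, adjusted p = 0.0018). In an intron of Ror1 (chr4:100116600-100117199), a receptor of the Wnt family, the levels were -0.74 and -2.0, with the lowest other sample at -0.40 (difference -2.10 ± 0.26, adjusted p = 0.00178). The introns of Arl15 (chr13:113919756-113920852), a small GTPase, and of Lyst (chr13:13702886-13704170), a regulator of lysosomal trafficking, differed by -2.10 ± 0.28 (adjusted p = 0.00314) and -2.0 ± 0.26 (adjusted p = 0.00307). With the NZO female alone their adjusted p-values were 0.0615 and 0.0723.

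**Figure D3:**
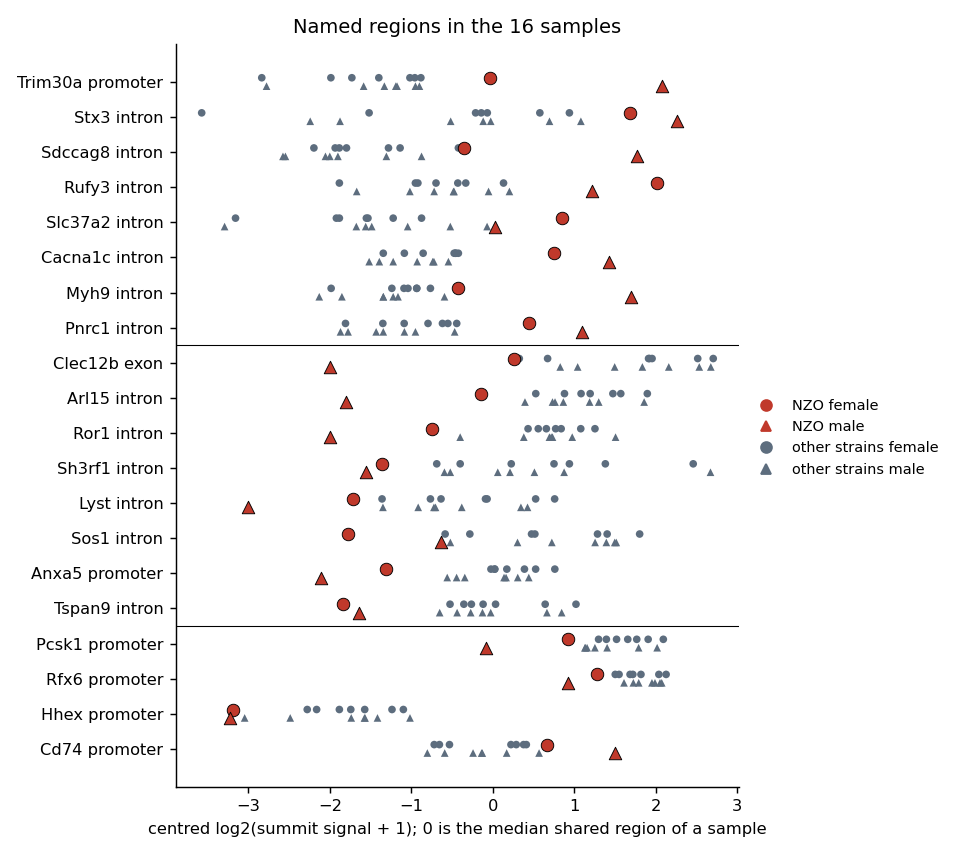
Levels of the 16 named regions with the largest differences and of 4 promoters from the gene lists, as centred log2(summit signal + 1). Red symbols are the NZO female (circle) and male (triangle) and grey symbols the other 14 samples. In every row both NZO samples lie outside the range of the grey symbols, in several by a small margin, such as the male at Sos1 (-0.64 against -0.58) and the female at Sdccag8 (-0.36 against -0.42) and Clec12b (0.26 against 0.32).

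A stricter view kept the regions that passed with each NZO sample alone. There were 82 such regions, all with the same direction in both, of which 45 were higher and 37 lower in NZO. All 82 were also called with both samples, which the choice made nearly certain, and 49 lay beyond all 14 others. The examples named next were chosen after their values were seen. In an intron of Scube2 (chr7:109831381-109831994), a secreted protein of hedgehog signalling, the levels were 1.42 in the female and 1.58 in the male, against -1.63 to 0.92 in the others (difference 1.80 ± 0.20, adjusted p = 0.00104). In an intron of Ptprm (chr17:66754148-66755765), a receptor tyrosine phosphatase of cell adhesion, they were 0.63 and 0.60 against -2.36 to 0.50 (difference 1.62 ± 0.21, adjusted p = 0.00307). The promoter of Zkscan3 (chr13:21396073-21396429), a zinc finger repressor, had levels of -0.90 and -0.76, while the other samples ranged from -1.02 in the 129 female to 1.96, so that NZO did not stand alone there (difference -1.95 ± 0.18, adjusted p = 0.000575).

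Some stretches of the genome held several called regions. In the 1221 windows of 2 Mb that held a region, the median number of called lower regions beyond all others was 0. The window at 128 to 130 Mb of chromosome 6 held 10 of them among 73 shared regions, which included 3 regions at Tspan9, the Clec12b exon, and regions nearest to Klrb1a and Klrb1c, receptor genes of natural killer cells that have close copies. The window at 44 to 46 Mb of chromosome 12 held 6 of 45, 5 of them at Nrcam, a cell adhesion molecule, with differences from -1.71 to -1.03. Among the higher regions, the window at 66 to 68 Mb of chromosome 15 held 6 of 44, and 5 of these were at St3gal1, a sialyltransferase, with differences from 1.01 to 1.82.

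Regions listed in both NZO samples and in no other numbered 1121 (0.322% of the 347712 merged regions), and regions listed in all 14 others and in neither NZO sample 142 (0.0408%). Among the other strains the number listed in that strain only ranged from 182 in 129 to 6249 in CAST, and NZO had the most of the 5 classical strains (129, AJ, B6, NOD and NZO), the next being B6 with 393. The number missing only in 1 strain ranged from 64 in B6 to 787 in PWK. When every sample was limited to its 77887 most significant peaks, the count listed only in NZO was 669, against 274 to 523 in the other classical strains. With 38943 peaks per sample it was 213, within the 114 to 249 of the other classical strains. The NZO-only regions were mostly weak and stronger in the male. Their median scaled signal was 0.210 in the female and 0.436 in the male, and 946 of 1121 were higher in the male. The female reached a scaled signal of 0.5 in 10 of them, and both samples did in 5.

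In an intron of Nr1h4 (chr10:89527114-89527440), the bile acid receptor FXR, the scaled signal was 0.383 in the female and 3.09 in the male. An intron of Ltbp1 (chr17:75110253-75111254), a latent TGF-beta binding protein, had 0.420 and 2.56, and an intron of Kif26b (chr1:178600724-178601437), a kinesin, had 0.309 and 2.55. The promoter of Fchsd1 (chr18:37964342-37964762), an adaptor of membrane and actin remodelling, had 0.284 and 2.56. These 4 regions were weak in the female and several times as strong in the male, and no other sample had a peak there.

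Of the regions missing only in NZO, that in an intron of Galntl6 (chr8:58463212-58464090), a glycosyltransferase, had the highest signal elsewhere, with a scaled signal from 0.414 in the 129 female to 5.13 in the PWK female (median 1.56). An intron of Galnt14 (chr17:73694305-73694978), of the same enzyme family, ranged from 0.519 to 2.11 (median 1.51). The promoter of Nat8f4 (chr6:85904488-85905161), from a family of similar acetyltransferase genes between which reads could be divided, ranged from 0.273 to 1.31. An intron of Slc24a2 (chr4:87141290-87143303), a sodium and calcium exchanger, ranged from 0.464 to 1.29. None of these 4 regions had a peak in the NZO female or the NZO male.

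The NZO-only regions were most numerous in the window at 18 to 20 Mb of chromosome 12, with 23 of 666 merged regions (3.45%), near predicted genes. The window at 60 to 62 Mb of chromosome 16 held 20 of 414 (4.83%), all intergenic, and that at 22 to 24 Mb of chromosome 12 held 14 of 373 (3.75%). The median window held 1 such region and 280 merged regions. No test of this spread was made. The scaled signal of these regions was at most 0.436 in either NZO sample.

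Promoters of named gene groups were read against those of all genes, of which 447 of 13383 promoter regions (3.34%) were called. Of 173 genes on the 13 lists with a shared promoter region, 6 (3.47%) were called, 2 higher and 4 lower. In beta cell identity and insulin secretion, 0 of 25 were higher, 3 were lower and 22 did not pass, with a median difference of -0.21 against 0.081 over promoter regions of all genes. The differences ran from -1.12 to 0.86, with 6 positive and 19 negative. The list median was -0.15 in the NZO female and -0.065 in the NZO male. Members went both ways, and the promoter peaks of Mafa and Slc2a2 were strongest in the NZO male. Their scaled signals were 3.67 (others at most 2.83) and 3.25 (at most 2.91). The 3 lower members are given next. Pcsk1 (chr13:75088504-75092728), the convertase that processes proinsulin, had levels of 0.92 in the NZO female and -0.079 in the NZO male, below 1.13 to 2.09 in all others (difference -1.12 ± 0.20, adjusted p = 0.0122). Rfx6 (chr10:51675610-51678910), a transcription factor of endocrine cells, had 1.28 and 0.92, below 1.5 to 2.13 in all others (difference -0.73 ± 0.17, adjusted p = 0.0327). Ins2, an insulin gene, had -0.69 and -1.35 against -1.28 to 0.81 (difference -0.82 ± 0.22, adjusted p = 0.0492), so that the female lay within the range of the others. Without the NZO male, none of the 3 passed (adjusted p = 0.228 for Pcsk1, 0.387 for Rfx6 and 0.470 for Ins2). With the mean signal, Pcsk1 had a difference of -0.58 (adjusted p = 0.0683). Rfx6 no longer passed without AJ, CAST, NOD or WSB (adjusted p up to 0.0715), nor without either sample of CAST, NOD or WSB (0.0580 to 0.0672).

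Hhex, a transcription factor of delta cells, was the member of the alpha, delta and PP cell list with a called region, as 1 of 8. Its shared region (chr19:37437003-37437999), 947 bases from a start, had levels of -3.19 in the NZO female and -3.22 in the NZO male, against -3.04 in the PWK male to -1.02 in the WSB male (median -1.66, difference -1.43 ± 0.20, adjusted p = 0.00353), and the adjusted p was 0.0444 with the female alone. Both levels lay below the 5th percentile of shared regions (-1.55 in the NZO female, -1.90 in the NZO male), near the floor of the signal. With the mean signal the difference at Hhex was -0.40 (adjusted p = 0.158). Another Hhex region (chr19:37433216-37435862), 64 bases from a start, had a peak in 10 of the 16 samples and was not tested. Its scaled signal was 0.210 in the NZO female and 1.04 in the NZO male, against 0 to 1.26 in the others, so that the male was not low there. Cd74 (chr18:60803213-60804079), the chaperone of class II histocompatibility molecules, was the only leukocyte marker with a shared promoter region, and it was higher, with 0.66 and 1.5 against -0.80 to 0.57 (difference 1.21 ± 0.24, adjusted p = 0.0167, and 0.316 with the female alone and 0.0621 with the mean signal). In the list of genes mapped in crosses with NZO, 1 of 8 was higher. This was Calcoco1, an autophagy receptor, with 1.20 and 2.13 against 0.32 to 1.54 (difference 0.88 ± 0.23, adjusted p = 0.0437, and 0.617 with the female alone). No member of the other 9 lists passed. These held 24 genes of the unfolded protein response, 24 of the cell cycle, 22 of lipid metabolism, 19 of interferon and antigen presentation, 18 of oxidative stress, 13 of beta cell dedifferentiation and disallowed genes (genes kept silent in normal beta cells), and 2, 6 and 4 markers of acinar, duct, and endothelial and stellate cells. The median difference in the lipid list was -0.0021 in the NZO female and 0.49 in the NZO male, and in the interferon list -0.084 and 0.50, where promoter regions of all genes had -0.061 and 0.23. With the NZO male alone, 44 of the 173 genes were called higher and 12 lower, and with the NZO female alone 0 and 1.

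To ask whether the sexes of NZO differed more than those of other strains, the female minus male difference of NZO was compared with the 7 differences of the other strains. In NZO the female was relatively higher in 1055 regions (2.58%) and the male in 736 (1.8%). The standard deviation of the difference over the shared regions was 0.70 in NZO and from 0.28 in WSB to 0.58 in PWK elsewhere. The NZO difference was the highest or lowest of the 8 strains in 52.2% of regions. The same held for 7.59% in WSB to 35.2% in PWK, with 34.0% in 129. The NZO difference rests on 1 female and 1 male. For that reason, a difference of sex and a male sample that stands apart cannot be told apart. The counts also hung on single strains, with 40 and 12 without CAST, 69 and 32 without NOD, and 2485 and 1881 without PWK.

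The 2 directions lay in different kinds of sequence. Of the regions higher in the NZO female, 12.6% were promoters and 49.3% intergenic, with a median GC content of 43%. Of those higher in the NZO male, 64.1% were promoters and 17.1% intergenic, with a median GC content of 55.7%. Over all shared regions the median GC content was 49%. The difference of the NZO male from the other strains correlated with GC content across regions at 0.366, next to 0.341 in the 129 female, and that of the NZO female at -0.071. Values of similar size in the other direction were -0.357 in the B6 male, -0.305 in the AJ male and -0.292 in the AJ female. The median of promoter regions exceeded that of other regions by 1.36 in the NZO male, the highest of the 16 samples, and by 0.77 in the NZO female, against 0.53 to 1.30 in the rest. As a strain, NZO had 1.07 against a mean of 0.84 in the other 7 strains, a difference of 0.23 that was not distinguishable from the spread between strains (exact permutation test over 8 strains, two-sided, p = 0.375, where the smallest possible p is 1 in 8).

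The largest relative excess in the female was in an intron of Iqub (chr6:24490117-24490799), where the level was -0.69 in the NZO female and -4.22 in the NZO male, against -2.17 to -0.22 in the others (adjusted p = 0.00721 for the sex difference). It was followed by introns of Phf14 (chr6:12051400-12053513), a histone-binding protein, with 0.37 and -2.81, and of Hace1 (chr10:45595075-45596664), a ubiquitin ligase, with 0.27 and -2.81. In all 3 the NZO female lay within the range of the other strains and the NZO male below it. These levels of the NZO male lay below the 5th percentile of its shared regions (-1.90), near the floor of the signal. In the other direction, an intron of Fermt2 (chr14:45462400-45464488), the integrin activator kindlin-2, had -2.19 in the NZO female and 0.84 in the NZO male, against -2.11 to -1.12 in the others (adjusted p = 0.00721). An intron of Sema6a (chr18:47341069-47342199), a guidance molecule, had -2.90 and -0.052, against -2.12 to -0.55, so that the female lay below and the male above all others. The promoter region of Pde6c (chr19:38133940-38134439), a photoreceptor phosphodiesterase, had -0.66 and 1.54, against -2.14 to 0.80.

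Of the genes on the lists, 13 had a sex difference of this kind, 12 with the higher level in the NZO male. Ins1, an insulin gene, was the exception. Its promoter region had a level of 2.24 in the NZO female, within the 1.20 to 2.68 of the other strains, and 0.53 in the NZO male, below all of them (adjusted p = 0.0301). Lipid metabolism held 5 of the 12, out of 22 with a shared promoter region (22.7%), where 3.87% of promoter regions of all genes were called. These were Srebf1, the regulator of fatty acid synthesis, Acly, which makes cytosolic acetyl-CoA, the desaturase Scd2, Dgat1, which makes triglycerides, and Pdk4, which restrains pyruvate oxidation. Acly had 0.49 in the NZO female and 1.78 in the NZO male, against -0.64 to 0.94, and Pdk4 had 0.052 and 1.48, against -1.0 to 0.81. The remaining 7 were Manf and Ern1 of the unfolded protein response, Ldha and Cd81 of the dedifferentiation and disallowed list, Irf7 and H2-D1 of the interferon list, the latter with close copies, and Gpx1, a glutathione peroxidase.

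The NZO male also carried peaks at promoters of white blood cell genes. Of 20 leukocyte markers, 12 had a promoter peak in the NZO male, 4 in the NZO female and 3 to 8 in the other 14 samples. No share of all gene promoters with a peak stands beside this or the other list counts. A general gain of promoter peaks in the NZO male was not tested. The scaled signal summed over the list was 9.56 in the NZO male, 2.51 in the NZO female and 1.72 to 2.76 in the others. Laptm5, a lysosomal membrane protein of blood cells (0.782), Adgre1, the macrophage antigen F4/80 (0.436), Lyz2, a lysozyme of macrophages and neutrophils (0.382), Tyrobp, a signalling adaptor of myeloid cells (0.382), and Itgam, the integrin CD11b (0.291), had a scaled signal in the NZO male and no peak in any of the other 15 samples. Spi1, which encodes PU.1, had 0.509 in the NZO male, 0.142 in the CAST female and no peak elsewhere. Among T and B cell markers, Cd3e and Cd79a, with a promoter peak in 2 and 6 of the other 14 samples, had none in the NZO male, and Cd3g, Cd4, Cd8a, Ms4a1 and Cd79b had none in any of the 16 samples.

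**Figure D4:**
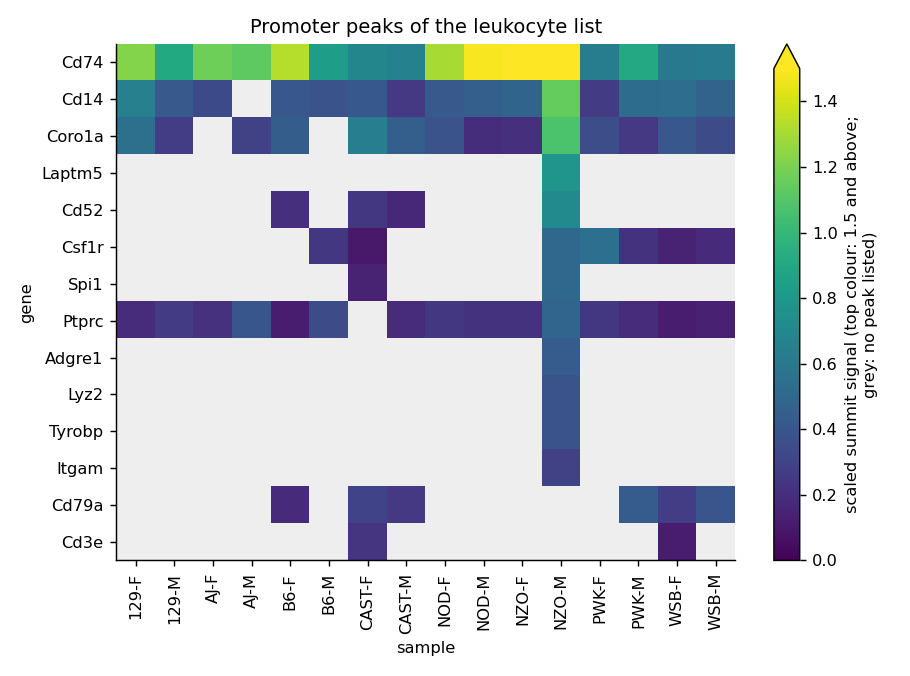
Scaled summit signal (color, where 1 is the median shared region of a sample) of the highest promoter peak of the 14 leukocyte markers with a peak in any sample (rows) in the 16 samples (columns), with grey where no peak was listed. The NZO male column is filled in 12 of 14 rows and that of the NZO female in 4, and the rows of Cd79a and Cd3e are empty in both.

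Additional lists, written after the leukocyte list had been seen, gave 25 of 30 myeloid genes with a promoter peak in the NZO male against 14 in the NZO female and 9 to 19 in the others. The summed scaled signal of the myeloid list was 22.4 in the NZO male, 12.7 in the NZO female and 10.7 to 14.2 in the others. Cd68, a lysosomal protein of macrophages, had 1.55 in the male and 0.420 in the female, and was at most 0.613 in the others. Ncf1, a subunit of the phagocyte oxidase, had 1.00 in the male, no peak in the female and at most 0.238 elsewhere. Other members did not rise. Vav1 was lowest in the NZO male (3.02, with the CAST female next at 3.15). Fcer1g, Aif1, C1qa, Lyn and Irf5 were among those within the range of the others. Of 16 lymphocyte genes, 12 had a peak in the NZO male and 6 to 11 in the others, with sums of 7.02 and 3.49 to 5.54. With 77887 peaks per sample the lymphocyte count was 9, within 5 to 9 (sums 4.75 and 2.63 to 4.05). With 38943 peaks it was 4, within 1 to 5 (sums 1.48 and 0.339 to 1.97). In that list the T cell gene Cd2 had 0.182 in the NZO male and no peak elsewhere. The NZO male was also highest for the T cell gene Trbc2 (0.527, at most 0.364 elsewhere) and the tetraspanin gene Cd37 (0.418, at most 0.375). So it was for Ebf1 (0.673, at most 0.5) and Cd28 (0.327, at most 0.326). For Cd22 it was the lowest, at 0.545, with the B6 male next at 0.675. For Cd5, Cd6, Lck, Cd247, Pax5 and Fcer2a it lay within the range of the others. With 77887 peaks per sample the leukocyte counts were 9 in the NZO male, 3 in the NZO female and 2 to 4 in the others, and with 38943 peaks 4, 1 and 1 to 2. Other lists moved less or stayed within the range of the others. Acinar cell promoters numbered 9 of 15 in the NZO male, within 4 to 9 in the others (sums 5.73 and 2.55 to 4.63). With 77887 peaks they numbered 6 against 4 to 8, and with 38943 peaks 4 against 0 to 3. Duct cell promoters numbered 10 of 10 in the NZO male and 6 to 9 in the others, with a sum of 11.3 within 7.15 to 11.9. With 77887 peaks they numbered 9 against 6 to 9. The endothelial and stellate list (10, within 7 to 10) and the alpha, delta and PP list (11, within 9 to 11) stayed within range, as did their sums. The beta cell sum was 54.8 in the NZO male and 60.3 in the NZO female against 57.5 to 83.4. The part of leukocytes or other cells in the differences of the NZO male was not tested.

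Sequence around the summits was read for 12 motifs in windows of 200 bases. Regions listed in the NZO male alone numbered 33071, against 3073 in the NZO female and up to 38059 (PWK male) in the other samples, and 3665 of them reached a scaled signal of 0.5, against at most 315 in any other sample. The PU.1 letters GAGGAAGT stood in 5.37% of the windows of the NZO male, 1.30% of those of the NZO female and 0.879% to 1.59% of those of single samples of the other strains. In the strong regions of the NZO male the share was 7.59%. The AP-1 letters TGANTCA, which read the same on both strands, stood in 21.1% of the windows of the NZO male, 12.8% in the NZO female and 4.99% to 18.5% in the others, and in 34.1% of the strong ones. The RUNX letters TGTGGTT stood in 6.79%, 4.23% and 3.63% to 5.03%. The NZO male was also above the other strains, by less, for the SP1 letters GGGCGG (3.01%, others at most 2.58%), the IRF letters GAAANTGAA (2.64%, at most 2.47%), the ETS letters CCGGAAGT (0.327%, at most 0.193%, with 0.293% in the NZO female) and the C/EBP letters TTGCGCAA (0.0726%, at most 0.0502%). It was below them for the E-box CAGATGG (3.69%, others 3.94% to 6.29%) and within their range for the CTCF core AGGGGGC, FOXA TGTTTAC, homeobox TAATTA and MAF TGCTGAC letters.

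The same letters were frequent in the regions that both NZO samples had. Each window was centred on the summit of the sample with the highest scaled signal in that region. In 946 of the 1121 NZO-only regions this was the NZO male, so those windows describe mostly its summits. Regions listed in the NZO female alone held the PU.1 letters in 1.30%, within the other strains. Of the 1121 NZO-only regions, 5.44% held the PU.1 letters and 26.9% the AP-1 letters, against 1.41% and 13.4% of all shared regions and 1.89% and 15.6% of all merged regions. Of the 346 called higher regions beyond all others the shares were 5.78% and 27.7%, and of the 491 lower regions 1.43% and 7.33%. In the 142 regions missing only in NZO, 0% held the PU.1 letters and 12.0% the AP-1 letters. The lower regions held the E-box CAGATGG, the form that NEUROD1 binds, in 12.4%, against 7.68% of all shared regions and 7.80% of the higher ones. The regions missing only in NZO held it in 7.75%. The lower regions also differed from all shared regions in homeobox letters (8.76% against 5.81%) and SP1 letters (10.8% against 19.7%). Fewer of them were promoters (24.0% against 38.5%), and the shares were not matched for this. Among the 70 regions called higher with the NZO female alone, 7.14% held the PU.1 letters and 17.1% the AP-1 letters. A match is a string of letters in the reference and not a bound site.

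**Figure D5:**
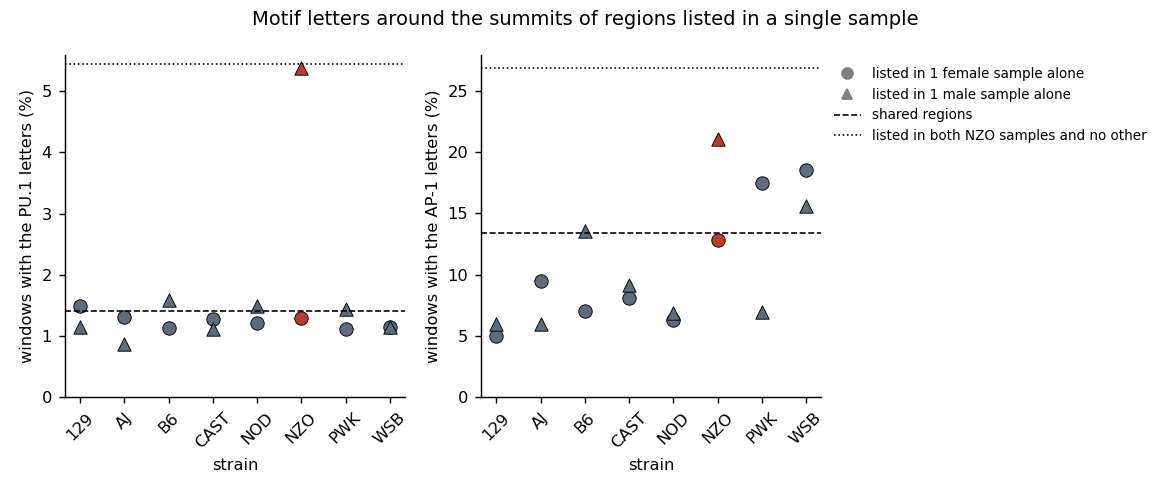
Percent of 200-base windows that hold the PU.1 letters (left) or the AP-1 letters (right) among regions listed in 1 sample alone, with circles for females, triangles for males and NZO in red. Dashed lines are all shared regions (1.41% and 13.4%) and dotted lines the regions listed in both NZO samples and no other (5.44% and 26.9%). For PU.1 the NZO male (5.37%) stands apart from the 15 other samples (0.879% to 1.59%), and for AP-1 it is the highest (21.1%), the WSB female being next (18.5%).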

How the data were processed

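ATAC-seq peak lists of pancreatic islets from 8 strains, 1 female and 1 male each, were used. According to the labels, reads were trimmed by the authors with cutadapt 2.0, aligned to mm10 with Bowtie2 2.3.4.1 and processed with SAMtools and Picard 2.9.2, and MOSAiCS called the peaks of each sample (false discovery rate 0.05). Reads were aligned to the B6 reference, which can affect sites where strains differ. The deposited summit signal is a whole number not scaled to depth, the deposited mean signal served as an alternative, and the deposited −log10 p-value ranked peaks for equal numbers. The deposited strain lists (IDR) were not used.

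Overlapping peaks were merged with Python 3.11.15. Strain and sex were fitted in limma 3.58.1 (R 4.3.3) to the centred log2 values (pseudocount 1) of 40940 regions, NZO was contrasted with the mean of the other strains, and p-values were Benjamini-Hochberg adjusted over all regions (threshold 0.05). The sex comparison set the female minus male difference of NZO against those of 7 strains. The model fit was tested on simulated data. Promoters lay within 3000 bases of a GENCODE M21 start. Named regions were the 8 largest rises and falls beyond all 14 other samples at protein-coding genes, the 5 strongest present or missing only in NZO, 3 per sex, and called list members beyond the others. Some named items are not reported here. Members and lists were chosen with earlier results of these data known. Alternatives changed the centring, signal, model, peak threshold and samples.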

Additional observations from a re-analysis of the deposited data

Results flagged for a closer look

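Leukocyte promoters in the NZO male stood apart from those of the other 7 males. Of 20 promoters, 12 had a peak in the NZO male, with 6 in the nearest and 3 in the lowest of the other males. The summed scaled signal of the list was 9.56 in the NZO male and 2.53 in the nearest male. In each case the gap to the nearest sample, over the range of the 8 males, exceeded the 95% critical value of the Dixon test (0.667 and 0.908 against 0.526). Of 28 groups of 8 samples examined in this way, chance alone flags about 1 in 20. Their cause was not tested.

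The female minus male difference of NZO differed from that of the other 7 strains in 1791 regions by limma at an adjusted p-value under 0.05. Since NZO had 1 sample of each sex, sex and sample cannot be told apart.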

How the results depend on the processing

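The named results kept their direction under the alternatives. The 20 regions were chosen with both NZO samples beyond all 14 others, so leaving out samples or strains could hardly reverse them. Of 719 fits of 20 named regions, 0 were reversed and 636 passed the threshold, and 11 of the 20 regions passed without the NZO male and 20 without the NZO female. Of the 20, 0 passed with 1 mean per strain, 0 with strain as a random block, 7 against the 4 other classical strains, 14 without centring and 15 with the mean signal. The counts moved more. In the order higher, lower, higher beyond all others and lower beyond all others, the counts were 26, 44, 17 and 12 without centring, 212, 267, 102 and 122 with 38943 peaks per sample, 26, 33, 25 and 29 against the 4 other classical strains, and 0 in all 4 both with 1 mean per strain (2117 at an unadjusted p under 0.05 by limma) and with strain as a random block (1904). With 77887 peaks per sample, 607 were higher, 608 lower and 275 lower beyond all others. The mean signal gave 692 lower and 277 lower beyond all others, and regions called in 12 or more samples gave 575 higher beyond all others. Leaving out 1 sample gave 70 to 5238 higher, 49 to 6028 lower, 49 to 4361 higher beyond and 39 to 4606 lower beyond, where the lowest counts came without the NZO male and the highest without the NZO female.

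For the sex comparison, female-higher and male-higher regions numbered 1 and 0 without centring, 254 and 191 with quantile normalisation, and 524 and 319 with centring in 10 GC bins, an alternative chosen after seeing the data. Leaving out 1 other strain gave 40 to 2485 and 12 to 1881. Regions listed only in NZO numbered 3170 with up to 2 exceptions allowed, 669 and 213 with 77887 and 38943 peaks, and 1135 to 34192 with 1 sample left out. Regions missing only in NZO numbered 37 with a coverage of at least 0.5, 836 with up to 2 exceptions and 142 to 1950 with 1 sample left out. The promoter excess of NZO ranged from -0.067 without the NZO male, where it was reversed, to 0.52 without the NZO female. List promoters called higher ranged from 0 to 44 and lower from 1 to 12 with 1 sample left out. Leukocyte promoters in the NZO male fell to 4 with 38943 peaks. The cause of these changes was not tested. The labels carry no replicate numbers, and sex, which the samples share across strains, was a term of the model. With 2 samples per strain and no read total per sample, a missing peak cannot be told from a weak one.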
